A study of Rattus norvegicus with 12 samples.

Results

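Chromatin regulators were followed through 49 cDNA clones of 36 genes, chosen by the gene symbol alone. A clone was a member when the platform annotation gave it a single symbol that began with HDAC, SIRT, CBX, KDM, KMT, SMARC, ARID, CHD, HMG or BRD. They were 49 of 8496 clones with 1 symbol, on an array of 9600 spots that stood for 6284 genes. The clones fell into 9 of the 10 classes: 7 clones of histone deacetylases (5 genes), 6 of sirtuins (5 genes), 7 of CBX chromobox proteins (5 genes), 2 of KDM histone demethylases, 2 of KMT histone methyltransferases, 7 of SMARC remodelling subunits (6 genes), 1 of the CHD remodellers, 15 of HMG proteins (9 genes) and 2 of the bromodomain protein BRD8. ARID genes had 0 clones, and genes such as HDAC2, SIRT1, KDM1A, SMARCA4 and CHD4 were not analysed here.

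The RNA came from hippocampal cultures of Sprague Dawley rats at embryonic day 18.5, grown for 12 days on a feeder layer of glia, with no genetic change in any group. Every culture was first silenced for 3 h in Block, a mixture of TTX (100 nM), CNQX (40 µM) and D-APV (50 µM) that closes sodium channels, AMPA and kainate receptors and NMDA receptors. BiC/4AP cultures were then excited with bicuculline (50 µM), an antagonist of GABA-A receptors, and the potassium channel blocker 4-aminopyridine (500 µM), while Block cultures stayed in the inhibitors. The ActD arms also received 25 µM actinomycin D, which stops transcription, so that a difference seen there need not pass through new RNA. There were 12 arrays, 6 of BiC/4AP and 6 of Block, in both cases with and without ActD, with 1 array for every treatment at 5, 30 and 60 min. No condition was repeated, and the labels (3 coverslips) and the study's methods (separate experiments) differ on what was pooled for an array. The methods also describe a stimulus of fixed length with later harvest, where the labels give treatment times, so a time may mean either. In such cultures a smaller share of a cell type and less RNA per cell cannot be told apart.

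Chromatin regulators decide how tightly DNA is packed around histones. Deacetylases and sirtuins remove acetyl groups from histones and other proteins, methyltransferases and demethylases write and erase methyl marks, chromobox proteins bind methylated histone H3, remodellers slide or evict nucleosomes, and HMG proteins bend DNA or bind the nucleosome itself. In neurons, several of them are known for controlling how activity reaches the genes of plasticity, and some, such as HDAC6 and SIRT2, act mainly on cytoplasmic targets including tubulin.

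Array medians were 24.5 to 31.8 intensity units at 5 min, 37.4 to 58.5 at 30 min and 53.5 to 69.8 at 60 min. The array numbers 81 to 92 followed the times, so time cannot be told apart from array number or overall brightness. The labels do not say what the numbers stand for. The 30 min BiC/4AP array correlated least with the others (median 0.913). Markers of neurons and of glia were both detected. Geometric means of neuron marker clones ran from 24.6 (GAD1) to 146 (STMN2) intensity units, and 2 of 11 lay in the dimmest 25% of spots. Astrocyte marker clones ran from 18.7 (SOX9) to 120 (ALDOC), with GFAP at 94.0 and 3 of 11 in the dimmest 25%. Single clones of other marker lists were brighter: microglial C1QB (10812), the fibroblast and vessel marker ACTA2 (3576) and oligodendrocyte CNP spot 3864 (1514). The other microglial clones ran from 40.4 to 72.7. The other CNP clones were at 6.41 (spot 4827) and 41.3 (spot 7057). All oligodendrocyte clones but CNP spot 3864 ran from 5.90 (PDGFRA) to 67.2 (SOX10 spot 5561). The other fibroblast and vessel clones ran from 15.0 (CLDN5) to 1336 (FN1). The summed intensity of 11 neuron marker clones ran from 450 to 969 in BiC/4AP and from 417 to 1042 in Block, and that of 11 astrocyte marker clones from 500.2 to 791 in BiC/4AP and from 532 to 866 in Block. The part of cell composition in the values below was not tested.

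Most of the chromatin clones read above the blank level. Of the 49 clones, 47 exceeded the 95th percentile of blank spots on all 12 arrays, where 7229 of all 8496 clones with 1 symbol did. On every 5 min array that percentile was 10 intensity units, which is also the placeholder value of the deposited intensities. Of the 49 clones, 30 were brighter than the median spot. The brightest were CBX3 (spot 4126, the HP1 gamma gene), with a geometric mean of 1532 intensity units over the 12 arrays, and 1 clone of HDAC6 (spot 4988) with 397. The dimmest was SIRT3, a mitochondrial deacetylase, with 12.3, and it passed the blank level on 5 arrays only. In all, 8 clones lay in the dimmest 25% of spots (below 27.7 intensity units): HDAC1, HDAC11, HDAC6 spot 4877, SIRT2 spot 835, SIRT3, KDM3B, SMARCC2 and HMG20B spot 712. Brightness depends on the clone's length and its match to rat RNA, so it does not rank the genes.

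**Figure D1:**
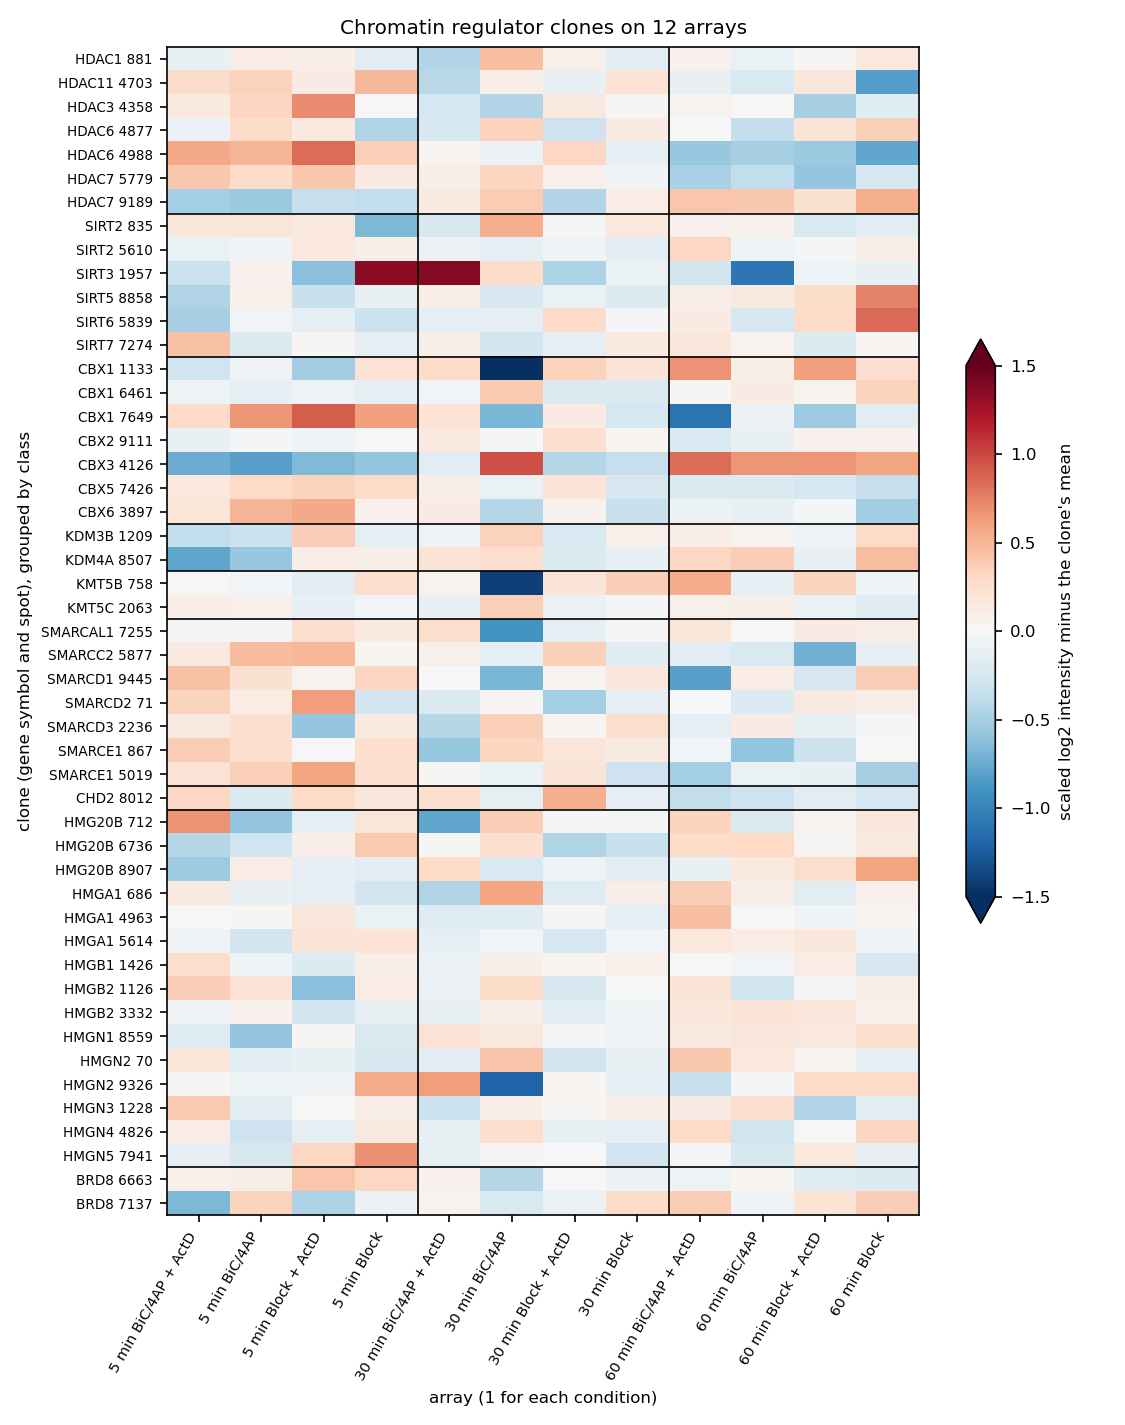
Each row is 1 of the 49 chromatin clones, grouped by class between black lines, and each column 1 of the 12 arrays, grouped by time. Colour is the scaled log2 intensity minus the mean of that clone over the arrays (red above, blue below). CBX1 spot 1133, KMT5B and HMGN2 spot 9326 are lowest on the 30 min BiC/4AP array, and HDAC6 spot 4988 is lower on every 60 min array than on every 5 min array.

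The first question was whether these transcripts differed between active and silenced cultures over all times. No clone did at the chosen threshold. With limma on scaled log2 intensities (z-scored per array, then multiplied by the mean SD of 1.75), 0 of 49 clones reached an adjusted p under 0.05, where 0% of all 9600 spots did, and 1 of 49 had an unadjusted p under 0.05, where 4.67% of all spots did. The differences of BiC/4AP minus Block lay between -0.37 and 0.29, with a median of -0.02, and 21 of 49 were above 0. Over all 8496 clones with 1 symbol the median was -0.01, and 47.0% were above 0. The standard errors of the 49 clones had a median of 0.15 (range 0.11 to 0.36). Differences larger than their standard error also went uncalled. HMGN2 spot 70, at 0.29 with a standard error of 0.13, had an adjusted p of 0.78 in limma. The lack of calls therefore does not show that changes of that size were absent. By class the median was -0.01 for histone deacetylases, -0.01 for sirtuins, 0.01 for CBX proteins, -0.04 for SMARC subunits and 0.03 for HMG proteins. In each of these classes clones lay on both sides of 0. The other classes held 1 or 2 clones each, too few to give a spread.

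**Figure D2:**
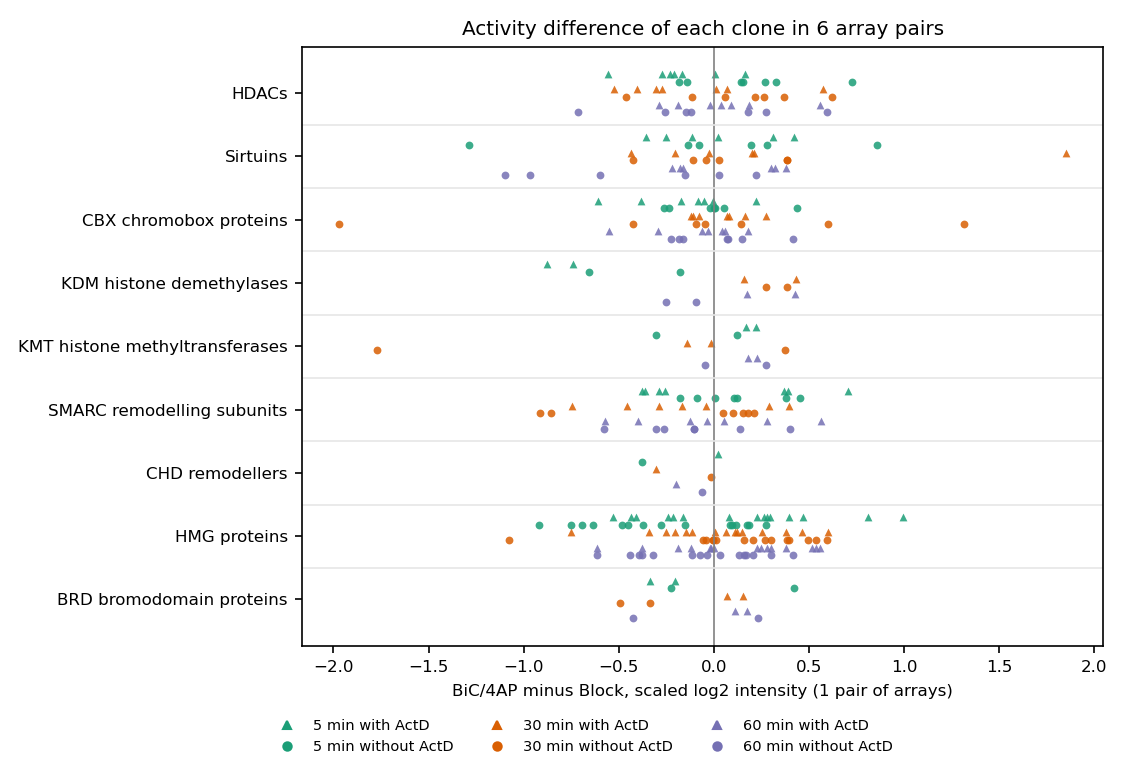
The x axis is BiC/4AP minus Block in scaled log2 intensity for 1 pair of arrays, and each point is 1 clone in 1 of the 6 pairs (colour is time, triangles are with ActD and circles without). Points of every class lie on both sides of 0, and the points farthest out are 1.85 (SIRT3, 30 min with ActD) and -1.97 (CBX1 spot 1133, 30 min without ActD).

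Within single times the result was alike. At 5 min, 0 of 49 clones passed the adjusted threshold (0% of all spots) and 3 had an unadjusted p under 0.05 (4.8% of all spots). At 30 min, 0 passed (0% of all spots) and 4 had an unadjusted p under 0.05 (9.89% of all spots). At 60 min, 0 passed (0% of all spots) and 1 had an unadjusted p under 0.05 (5.01% of all spots). The lowest adjusted p of any chromatin clone was 0.97 at 5 min, 0.45 at 30 min and 0.93 at 60 min.

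The histone deacetylases remove acetyl groups from histone tails (HDAC1, HDAC3 and HDAC7 in repressor complexes) or from tubulin (HDAC6). Their 7 clones differed by -0.06 to 0.09 over all times. HDAC1, a dim clone, was at -0.01 ± 0.16 (SE here and below). HDAC3 read 35.0 with ActD and 29.9 without in 30 min BiC/4AP, against 37.3 with ActD and 52.6 without in 30 min Block, and at 60 min 57.5 and 49.8 in BiC/4AP against 37.1 and 53.8 in Block. Its scaled difference was -0.43 ± 0.25 at 30 min (adjusted p = 0.61) and 0.37 ± 0.25 at 60 min (adjusted p = 0.94, limma), below Block in both pairs at 30 min and above it in both at 60 min. Both HDAC7 clones were near 0.09 over all times (0.08 ± 0.12 and 0.09 ± 0.13), and HDAC6 spot 4988 was at -0.01 ± 0.12.

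Among the sirtuins, NAD-dependent deacetylases, 6 clones ranged from -0.31 to 0.26 over all times. SIRT6, which acts on telomeric and DNA repair chromatin, read 47.4 with ActD and 32.9 without in 60 min BiC/4AP, against 49.1 and 85.3 in 60 min Block. The Block array without ActD was the highest of all 12, and the difference at 60 min was -0.63 ± 0.27 (adjusted p = 0.93). SIRT5, a mitochondrial desuccinylase, had the same pattern at 60 min, with 65.8 with ActD and 61.4 without in BiC/4AP against 68.7 and 112 in Block (-0.39 ± 0.24, adjusted p = 0.93), but its difference was 0.0232 with print medians removed and blank, unnamed and placeholder spots left out. The SIRT2 clones lay on opposite sides of 0, at 0.26 ± 0.19 for the dim spot 835 and -0.04 ± 0.12 for spot 5610. SIRT3 had the widest swings of any chromatin clone, with 34.5 in 30 min BiC/4AP + ActD against 7.56 in 30 min Block + ActD, where the 95th percentile of blank spots was 10 intensity units on both arrays. Its fitted difference at 30 min was 1.12 ± 0.57 (adjusted p = 0.549). SIRT7, a nucleolar deacetylase, was at 0.09 over all times.

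The CBX proteins are readers of methylated histone H3. CBX1 (HP1 beta) spot 1133 read 336 with ActD and 75.7 without in 30 min BiC/4AP, against 282 and 402 in 30 min Block. A single array, BiC/4AP without ActD, was low, so the pair without ActD differed by -1.97 and the pair with ActD by -0.08. The fitted difference at 30 min was -1.03 ± 0.46 (adjusted p = 0.487), and the other CBX1 clones were at 0.38 (spot 6461) and -0.17 (spot 7649). CBX3 had the opposite pattern on the same array, with 1592 with ActD and 3186 without in 30 min BiC/4AP, against 1032 and 1798 in 30 min Block. Its difference was 0.79 ± 0.29 at 30 min (adjusted p = 0.45), 1.31 in the pair without ActD and 0.28 with it. CBX5 (HP1 alpha) stayed within 0.17 of Block in each of the 6 pairs and was at 0.01 ± 0.12 over all times. CBX2, a Polycomb reader, lay below Block in all 6 pairs, by 0.02 to 0.29, with -0.12 over all times.

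The methyltransferase KMT5B, which places methyl groups on histone H4, repeated the pattern of CBX1 spot 1133. It read 158 with ActD and 54.0 without in 30 min BiC/4AP, against 139 and 246 in 30 min Block. The difference was -0.95 ± 0.35 at 30 min (adjusted p = 0.45), with -1.77 without ActD and -0.14 with it. Both clones were printed at position 8 of their 25-spot blocks, where the median spot differed by -0.19 in that pair, and after the medians of print block and position were removed CBX1 was at -0.91 ± 0.50 and KMT5B at -0.91 ± 0.43. On the same pair of arrays 10 of 11 neuron marker clones (median -0.39) and 8 of 11 astrocyte marker clones (median -0.13) lay below 0. So did 20 of the 49 chromatin clones and 4762 of all 9600 spots. Among those 20 were HMGN2 spot 9326 (-1.08), SMARCAL1 (-0.91) and SMARCD1 (-0.86). Whether print position or cell composition had a part in these values was not tested. With 30 min BiC/4AP + ActD left out, so that BiC/4AP at 30 min was that single array, 7 of the 49 clones passed at 30 min, among them KMT5B (-1.63) and CBX1 spot 1133 (-2.04), and 1162 of all spots did. KMT5C, the related enzyme, was at 0.18 at 30 min and 0.19 ± 0.11 over all times.

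**Figure D3:**
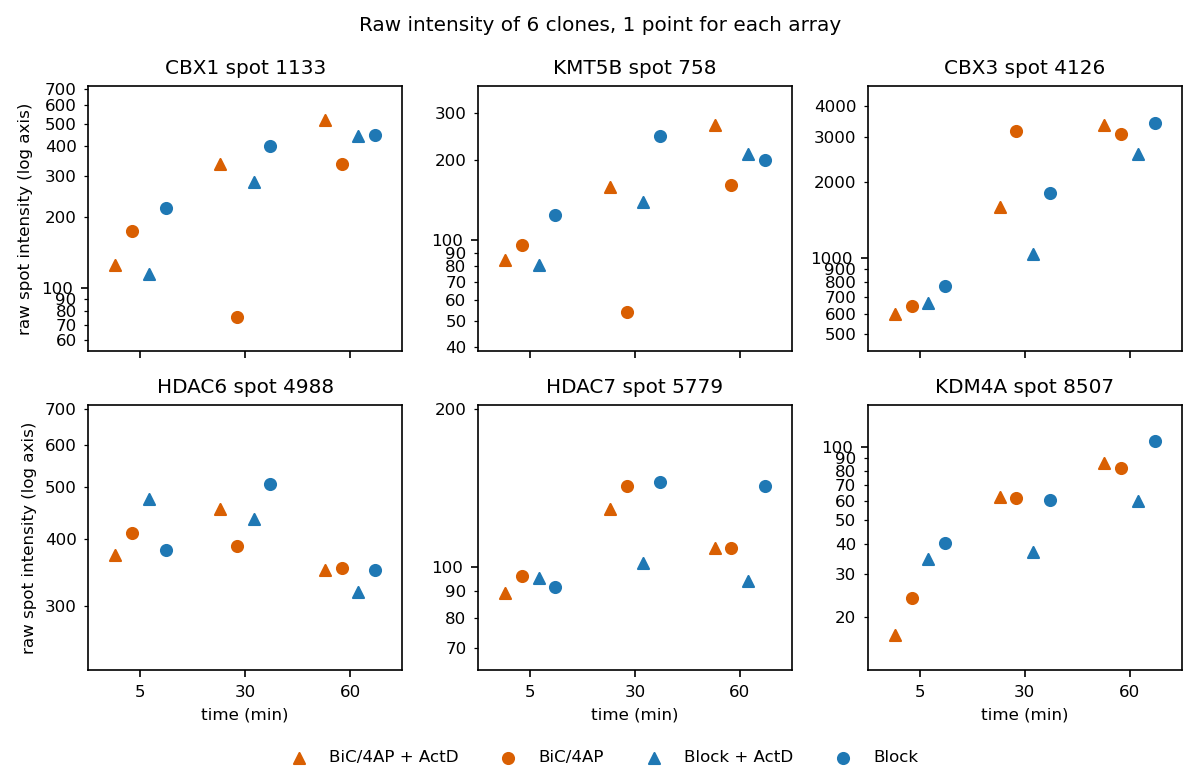
Raw spot intensity (log axis) against time for 6 clones, with 1 point for each array (orange BiC/4AP, blue Block, triangles with ActD, circles without). CBX1 spot 1133 and KMT5B have 1 low array, 30 min BiC/4AP, CBX3 has 1 high array there, and HDAC6 spot 4988 is lower on all 60 min arrays than on all 30 min arrays.

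KDM4A, a demethylase of histone H3, differed most of the chromatin clones at 5 min. It read 17.0 with ActD and 23.9 without in 5 min BiC/4AP, against 34.7 and 40.4 in 5 min Block. The treatment groups did not overlap, and the difference was -0.76 ± 0.21 (adjusted p = 0.97). At 30 min the order was turned, with 62.7 with ActD and 62.0 without in BiC/4AP against 37.1 and 60.9 in Block (0.41 ± 0.21). KDM3B, a dim clone of another demethylase, differed by -0.46 at 5 min and 0.22 at 30 min. HMG20B spot 6736, a DNA-bending subunit of a histone demethylase complex, had the same order, with 45.1 with ActD and 58.8 without in 5 min BiC/4AP against 71.1 and 101 in 5 min Block, and 112 and 126 in 30 min BiC/4AP against 64.5 and 108 in 30 min Block. Its differences were -0.61 ± 0.18 at 5 min and 0.53 ± 0.18 at 30 min, while its other clones were at 0.03 and -0.07 at 5 min. The change of the activity difference between 5 and 30 min was tested in the same fit, a test added after the values were seen. It was 1.17 ± 0.29 for KDM4A (adjusted p = 0.49) and 1.14 ± 0.26 for HMG20B (adjusted p = 0.46). In that test 0 of 49 clones passed (0% of all spots), and 4 had an unadjusted p under 0.05 (8.98% of all spots).

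The SMARC genes encode subunits of SWI/SNF complexes, apart from SMARCAL1, a DNA-annealing helicase. Their 7 clones differed by -0.24 to 0.09 over all times. SMARCC2, a core subunit and a dim clone here, was at 0.05 ± 0.17, and SMARCD2, a subunit of the same family as SMARCD3, was at 0.02. SMARCD3, a subunit of the neuronal complex, read 78.9 with ActD and 101 without in 5 min BiC/4AP, against 51.7 and 98.5 in 5 min Block (0.41 ± 0.22, adjusted p = 0.97), and the gap came from the low Block + ActD array. CHD2, a chromodomain remodeller, lay below Block in 5 of 6 pairs (-0.16 ± 0.13), and the BRD8 clones, which carry the same accession, were at -0.08 and -0.06.

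The HMG proteins were the largest class. HMGN2 spot 70, a nucleosome-binding protein, was above Block in each of the 6 pairs. At 5 min it read 177 with ActD and 162 without in BiC/4AP, against 153 and 160 in Block. At 30 min the readings were 250.0 and 353 in BiC/4AP against 182 and 325 in Block. At 60 min they were 434 and 354 in BiC/4AP against 304 and 344 in Block. The scaled groups overlapped, with 2.24 to 2.83 in BiC/4AP and 2.12 to 2.43 in Block, and the difference was 0.29 ± 0.13 (unadjusted p = 0.047, adjusted p = 0.78, limma). The second HMGN2 clone, spot 9326, was at -0.33 ± 0.22. HMGB2 spot 3332, which bends DNA, was likewise above Block in 6 of 6 pairs, but by 0.00 to 0.22, and averaged 0.13 ± 0.11. Its other clone was at 0.22 ± 0.16 and above in 5 of 6. Counting clones on 1 side of 0 in all 6 pairs, 3 of 49 met this (HMGN2 spot 70, HMGB2 spot 3332 and CBX2), where 3.6% of all spots did.

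HMGN5, another nucleosome binder, read 17.6 with ActD and 19.8 without in 5 min BiC/4AP, against 26.3 and 40.1 in 5 min Block (-0.68 ± 0.23, adjusted p = 0.97). HMGB1, an abundant DNA-bending protein that is also a released danger signal, was at 0.05 ± 0.12 over all times, and HMGN1 at -0.04 ± 0.13. HMGN3 was at 0.12 over all times. The HMGN4 clone was at -0.02, but no rat gene of that symbol is listed, so it may read RNA of a related gene. The 3 HMGA1 clones, for a protein that binds AT-rich DNA, were at 0.21 ± 0.16, 0.03 ± 0.12 and -0.08 ± 0.13.

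The study's own criterion was a z-fold past 1.4 in the same direction with and without ActD, where the z-fold is the BiC/4AP minus Block difference of a pair of arrays divided by its SD over all spots. It carries no test. No chromatin clone met it: 0 of 49 at 5 min (1.2% of all spots), 0 at 30 min (1.22%) and 0 at 60 min (1.6%). The nearest was KDM4A at 5 min, with z-folds of -1.55 with ActD and -1.22 without. In single pairs at 5 min, 3 clones passed 1.4 with ActD (8.96% of all spots) and 3 without (7.06%). At 30 min the counts were 3 with ActD (6.43%) and 4 without (10.9%). At 60 min they were 0 with ActD (9.12%) and 2 without (8.18%). Each clone that passed in 1 pair was within the threshold in its partner. The largest z-folds were 3.56 for SIRT3 at 30 min with ActD, and -2.92 for CBX1 spot 1133 and -2.62 for KMT5B at 30 min without ActD.

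Stopping transcription was compared over all times by setting the 6 ActD arrays against the 6 without. Here 0 of 49 clones passed the adjusted threshold (0% of all spots), 2 had an unadjusted p under 0.05 (2.34% of all spots), and the differences ran from -0.37 to 0.36. SMARCD3 was lower with ActD in all 6 pairs. In BiC/4AP it read 78.9 with ActD against 101 without at 5 min, 96.2 against 158 at 30 min and 145 against 163 at 60 min. In Block it read 51.7 against 98.5, 106 against 195 and 136 against 179 at the same times. The difference was -0.37 ± 0.14 (unadjusted p = 0.017, adjusted p = 0.99). HMG20B spot 6736 was also below in 6 of 6 pairs, by 0.03 to 0.29 (-0.15 ± 0.16), so that 2 of 49 clones lay on 1 side throughout, where 2.36% of all spots did. CHD2 was at 0.28 ± 0.13 and CBX6, a Polycomb reader, at 0.27 ± 0.14, each higher with ActD in 5 of 6 pairs.

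Whether the activity difference depended on ActD was tested as an interaction. None of the 49 clones passed (0 of 49, with 0% of all spots), and 1 had an unadjusted p under 0.05 (2.58% of all spots). That clone was SMARCE1 spot 5019, an HMG-box subunit of SWI/SNF, at -0.56 ± 0.23 (adjusted p = 0.999). BiC/4AP minus Block was -0.38, -0.17 and -0.40 with ActD at 5, 30 and 60 min, and 0.12, 0.21 and 0.40 without. The 2 sets of pairs did not overlap, but the other SMARCE1 clone was at 0.10 ± 0.35.

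Times differed more than treatments. Comparing 30 min with 5 min, 0 of 49 chromatin clones passed the adjusted threshold, where 0.406% of all spots did, and 8 had an unadjusted p under 0.05, where 15.2% did. In all 4 pairs of arrays 12 clones lay on 1 side, 2 above and 10 below, where 22.5% of all spots lay on 1 side. Comparing 60 min with 30 min, 1 of 49 passed, where 3.15% of all spots did (4 higher and 298 lower, or 150 and 352 after quantile normalization), 6 had an unadjusted p under 0.05 (14.8%), and 12 lay on 1 side in all 4 pairs (19.9%).

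The clone that passed was HDAC6 spot 4988, for the tubulin deacetylase, which fell between 30 and 60 min. At 5 min it read 374 with ActD and 411 without in BiC/4AP, and 475 and 381 in Block. At 30 min it read 456 and 389 in BiC/4AP, and 437 and 508 in Block. At 60 min it read 350.4 and 354 in BiC/4AP, and 319.5 and 350.0 in Block. All 60 min readings lay below all 30 min readings, although each 60 min array had a higher median than the 30 min array of the same treatment. Scaled values were 3.42 to 3.90 at 5 min, 2.92 to 3.37 at 30 min and 2.29 to 2.56 at 60 min, with no overlap between times. The difference was -0.63 ± 0.15 from 30 to 60 min (adjusted p = 0.025) and -0.54 ± 0.15 from 5 to 30 min (adjusted p = 0.12), lower in 4 of 4 pairs both times. The call was lost when any of 5 arrays was left out (adjusted p = 0.060 to 0.15): 30 min Block with or without ActD, 60 min Block with or without ActD, and 60 min BiC/4AP + ActD. The other HDAC6 clone, spot 4877, was 19.3 times dimmer and stood at 0.07 in the same comparison.

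Other chromatin clones had large time differences that did not pass. HDAC7 spot 5779 read 93.9 to 142 at 60 min and 102 to 145 at 30 min, and its scaled values did not overlap between these times (-0.53 ± 0.15, adjusted p = 0.065), while the other HDAC7 clone was at 0.35 ± 0.16. CBX3 read 597 to 774 at 5 min, 1032 to 3186 at 30 min and 2572 to 3417 at 60 min, or 24.4, 32.6 and 52.4 times the median spot of its array (median of the 4 arrays of a time). Its scaled difference was 0.71 ± 0.24 from 5 to 30 min (adjusted p = 0.16) and 0.68 ± 0.24 from 30 to 60 min (adjusted p = 0.15). When that late comparison was refitted with 30 min BiC/4AP left out, it was 1.001 ± 0.14 and passed (adjusted p = 0.00012). In that refit 771 of all 9600 spots passed, 388 of them higher, against 302 in the reported fit, 4 of them higher. CBX1 spot 7649 was lower at 30 min than at 5 min in all 4 pairs (-0.77 ± 0.23, adjusted p = 0.13), and its other clones were at -0.08 and 0.09.

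Clones of the same gene often differed in direction. There were 10 genes with several clones, which made 16 clone pairs. BiC/4AP minus Block had the same sign in 43 of 96 comparisons of 2 clones in an array pair, or 44.8%, against 53.2% over all 1488 genes with several clones. None of the 16 pairs shared its sign in all 6 array pairs (0 of 16), where 114 of 3640 clone pairs of all genes did. HMGN2 was farthest apart, with a mean gap of 0.77 between its clones, and HMGA1 spots 686 and 4963 were closest with 0.19.

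**Figure D4:**
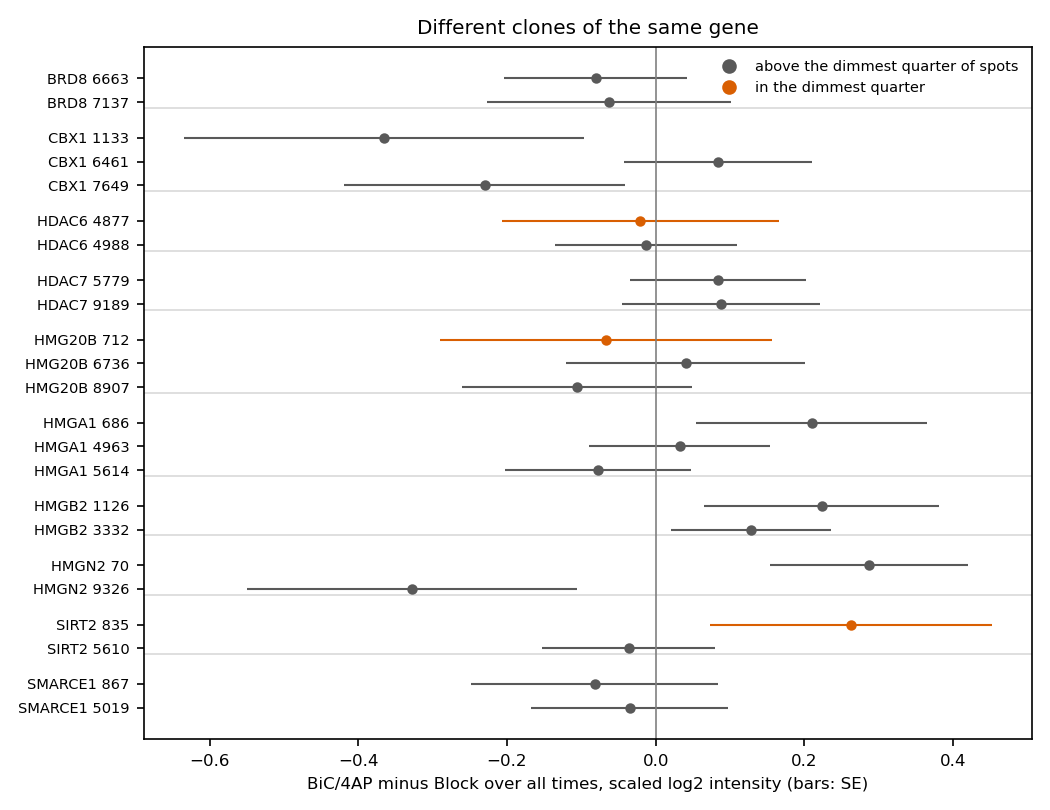
BiC/4AP minus Block over all times (x axis, scaled log2 intensity, bars are SE) for every clone of the 10 chromatin genes with several clones. Orange points are clones in the dimmest 25% of spots. The HMGN2 clones lie at 0.29 and -0.33, and the CBX1 clones at -0.37, 0.08 and -0.23.

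Genes of 6 other chromatin lists gave 122 clones of 90 genes. The lists held Polycomb proteins, histone acetyltransferases, further methyltransferases and co-repressor subunits. They also held DNA methylation enzymes and readers, and histone chaperones with INO80, SWR1, ISWI and other remodelling subunits. Of these 122, 0 passed in limma for activity over all times, for ActD or for activity at 5, 30 or 60 min. At an unadjusted p under 0.05 there were 5 for activity over all times (4.67% of all spots), 4 for ActD (2.34%), 8 at 5 min (4.8%), 10 at 30 min (9.89%) and 4 at 60 min (5.01%). Between 5 and 30 min 1 of the 122 fell, where 0.406% of all spots passed, and between 30 and 60 min 4 of the 122 fell, where 3.15% did. The clone that fell first was RUVBL1 spot 6385, an INO80 helicase (-1.03 ± 0.17, adjusted p = 0.016), whose other clones were at 0.11 and 0.14. Its call was lost without 5 min BiC/4AP, 5 min BiC/4AP + ActD or 5 min Block + ActD (adjusted p up to 0.12), and also with print medians removed and with no intensity trend. Between 30 and 60 min the co-repressor CTBP1 fell by 1.03 ± 0.16 (adjusted p = 0.00055), the methyltransferase SETD3 by 1.19 ± 0.21 (adjusted p = 0.0020), the Polycomb subunit SUZ12 by 0.82 ± 0.16 (adjusted p = 0.0042) and TADA2A spot 2946, an acetyltransferase adaptor, by 0.85 ± 0.17 (adjusted p = 0.0051), whose other clone was at 0.14. All 4 kept their call with each of the 12 arrays left out, but TADA2A lost it with print medians removed. CTBP1 read 34.8 to 44.0 at 60 min and 47.9 to 84.5 at 30 min, with no overlap, and SETD3 read 1622 to 2618 and 4038 to 5012. SETD3 (spot 4127) is the neighbour of CBX3 (spot 4126) in the spot index. It was placed among the further methyltransferases, and whether it acts on histones was not tested.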

How the data were processed

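Total RNA of 12 cultures was reverse-transcribed with 33P and hybridized to nylon filters of cDNA clones. Spot intensities were quantified from phosphor screens by the authors and deposited unnormalized on a linear scale. Values of the series matrix were 100% identical to them. The platform annotation uses human symbols, so rat RNA was read through human clones and related genes may cross-hybridize. Of the 36 genes, 35 have a rat gene of that symbol, and HMGN4 does not. The spot index used placed ribosomal protein clones at a median brightness percentile of 87.2, against 58.1 for the other index. No column of another sample was used (0). No coordinates or sequences are printed.

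Log2 intensities were z-scored per array, as in the study's methods, and multiplied by the mean SD. Limma 3.58.1 in R 4.3.3 (lmFit, eBayes with intensity trend, two-sided) was fitted to all 9600 spots with Benjamini-Hochberg adjustment at 0.05, with residual degrees of freedom of 7 (activity, ActD, times), 6 (interaction) and 5 (within a time). The spread is the disagreement between times and arms, so p-values cover these single arrays and not repeated experiments. The scripts were tested on simulated data. Position 25 of the 25-spot blocks (384 spots) was taken as blank. Named were the 3 clones with the smallest p in each direction of each comparison above the dimmest 25% of spots, all clones of those genes, genes with 3 clones or more, and genes chosen for their known roles; any other clone in the text (CBX2, SMARCC2 and the dim clones among them) was named for its role or after its values were seen. Members and lists were chosen with earlier results of these data known. Alternatives were other scalings, spot filters, a pseudocount of 10, removal of print medians, no intensity trend, z-fold thresholds of 1.2 and 2, 1 clone per gene, and leaving out arrays. Precision is limited by having 12 arrays.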

Additional observations from a re-analysis of the deposited data

How the results depend on the processing

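For the chromatin clones the absence of calls for activity over all times, at 5 min and at 60 min, for ActD and for the interaction held under every alternative run. For activity over all times, ActD and the interaction, 0 of all spots were called in every run too. At 5 min and at 60 min 0 of all spots were called in the reported fits. These absences are therefore not particular to the chromatin clones. For 60 min against 30 min, 1 clone was called in the reported fit (302 of all 9600 spots). Without division by the SD there were 2, HDAC6 spot 4988 and HDAC7 spot 5779 (364 spots). With print medians removed there were 2, HDAC6 and SMARCAL1 (328 spots). An added alternative, chosen after seeing the data, removed print medians and left out blank, unnamed and placeholder spots. It gave 3, HDAC6, SMARCAL1 and CBX3 (395 of 8376 spots). With an array left out, 0 to 2 were called (211 to 771 spots). For 30 min against 5 min, 0 were called in the reported fit (39 of all spots) and 1 (CBX3) under that added alternative (22 of 8376). With any array left out 0 were called (4 to 34 of all spots). For activity at 30 min, 0 to 7 were called with an array left out. The 7 were called without 30 min BiC/4AP + ActD, where BiC/4AP at 30 min was the single array that stood apart and 1162 of all spots were called: CBX1 spot 1133, KMT5B, CBX3, SMARCAL1, SMARCD1 and both HMGN2 clones. Clones past the z-fold of 1.4 the same way with and without ActD at 5 min were 0 as reported (115 of all 9600 spots). There was 1, KDM4A, with blank, unnamed and placeholder spots left out (141 of 8376) and with the dimmest 25% left out (134 of 7200). KDM4A alone also passed at a threshold of 1.2 (165 of 9600). With log2(intensity + 10) there were 2, KDM4A and HMG20B spot 6736 (181 of 9600). At 30 min 1 clone, the dim SIRT3, passed 1.4 both ways with print medians removed (116 of 9600 spots) and under the added alternative (192 of 8376). Activity at 60 min changed sign for SIRT5 (0.0232 under the added alternative) and for HMG20B spot 8907 (5.5e-05 with print medians removed, 0.0611 under the added alternative). Differences of named clones kept their direction and their side of the threshold 567 times with an array left out and 408 times under other settings. Under other settings the direction changed 3 times. The only named result called in the reported fits, HDAC6 spot 4988, lost its call 5 times with an array left out. All other named results were uncalled from the start, so keeping their side of the threshold says little about how firm they are. Class medians moved by more than the spread 59 times and did not 1354 times. No paired analysis was possible because all 12 samples carry the same replicate number, so it cannot serve as a block; arrays were matched by time and ActD arm instead.

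Each comparison rests on single arrays, and the disagreement between times and arms stands in for replicate error. Dim clones lie near the blank level, where a few units of intensity give large log differences. Time, array number and overall brightness move together. The causes of the changes listed here were not tested.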
